A study of Homo sapiens with 18 samples.

Results

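The genes described here are the heat shock proteins and chaperones read in human acute myeloid leukaemia cells after SHP2 inhibition. They were taken by gene symbol: the HSPA, HSPB, HSPD, HSPE, HSPH and HSP90 families, the J-domain proteins DNAJA, DNAJB and DNAJC, and the subunits of the chaperonin TRiC (the CCT genes and TCP1). Of 145 symbols that matched in a table of 40184 genes, 66 were pseudogenes and 10 had a mean under 1 CPM (recovered reads relative to the scaled size of the library) over the 18 libraries, which left 69 members. The members just above that limit were DNAJB13 and HSPB7, at means of 1.14 and 1.54 CPM, and the genes just below it were DNAJC6 and DNAJC22, at 0.94 and 0.76 CPM. The symbol rule also takes HSPBP1 and HSPBAP1, which bind heat shock proteins and belong to other families. By place of work the members were 9 TRiC subunits, 13 HSP70, HSP110 and HSP90 genes of the cytosol with HSPBP1 among them, 17 J proteins of the cytosol and nucleus, 13 genes of the endoplasmic reticulum (ER), 10 of the mitochondria, 2 small heat shock proteins, 2 of vesicles and 3 left unplaced.

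The 3 human lines were each cultured for 24 h with the vehicle DMSO or with RMC-4550 at 500 nM, with 3 biological replicates in each of the 6 groups. Molm-14 and MV4-11 carry FLT3-ITD, and SKNO-1 carries KIT N822K and was the only line given GM-CSF, at 10 ng/mL, so that line and growth factor cannot be told apart. All 3 were grown with 10% serum, and the labels give no difference in genotype between DMSO and RMC-4550 cultures of a line. RMC-4550 is an allosteric inhibitor that holds the phosphatase SHP2, the product of PTPN11, in its closed form and so blocks a relay from receptor tyrosine kinases to RAS. Each line is a single established line, and results describe these cultures. P-values measure the spread between these cultures. Except where a line was fitted alone, that spread was pooled for each gene over all groups in the fit. In the main fit over all 18 libraries, a gene's standard error is then the same in each line and includes the spread within the other lines. In fits with libraries left out, or with another term added, it can differ between lines but still includes that spread. A change that did not pass in a line therefore need not mean a wide spread among that line's own cultures. In RNA from whole cultures, fewer cells with a transcript and less of it per cell cannot be told apart.

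Chaperones bind unfolded or partly folded proteins. In the cytosol, HSP70 proteins bind and release clients in a cycle that J proteins start and nucleotide exchange factors such as the HSP110 proteins end, HSP90 receives many kinases, FLT3-ITD among them, for their last folding steps, and the ring-shaped TRiC folds actin, tubulin and other proteins that cannot fold alone. The ER and the mitochondria have HSP70 and HSP90 proteins of their own, and the mitochondrial matrix also has the HSPD1 and HSPE1 chaperonin. Transcription of many cytosolic chaperones is driven by the heat shock factor HSF1, and that of ER chaperones by the unfolded protein response.

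Read totals lay between 17434810 and 19959917 per library. The share of reads in mitochondrial genes was above 10% in 4 libraries, namely Molm-14 RMC-4550 replicate 2, MV4-11 DMSO replicates 1 and 3 and MV4-11 RMC-4550 replicate 1 (10.5% to 15.02%), and between 5.07% and 7.02% in the other 14. Counts of called members, and the named changes these 4 libraries move most, are given with them and without them. In the fit over 14 libraries, MV4-11 with DMSO is replicate 2 alone, and its spread is assumed to be that of the other groups. Of the AML myeloid markers checked, CD33, SPI1, CEBPA, PTPRC, FLT3, CSF3R and ITGAM were read in all groups, and MPO was read at 317 ± 3.44 CPM in SKNO-1 with DMSO (SD, n = 3) against 3.58 ± 0.711 in Molm-14 and 1.44 ± 0.357 in MV4-11. RUNX1T1, the partner gene in the fusion known from SKNO-1, had 237 to 306 reads in SKNO-1 libraries and at most 1 in the others. Of the markers of other cell types, CD3E, CD3D, MS4A1, ALB, EPCAM and HBB stayed under 1 CPM on average in all groups, while KRT18, COL1A1 and PECAM1 had group means between 1.61 CPM (COL1A1 in MV4-11 with DMSO) and 192 CPM (PECAM1 in MV4-11 with RMC-4550). KRT18 was called higher with RMC-4550 in Molm-14 (0.54 (SE 0.21), limma adjusted p 0.047), and its highest value was in the library over 10% mitochondrial reads. The part of other cells in the Molm-14 results was not tested. COL1A1 and PECAM1 passed in no line over 18 libraries.

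Chaperone messages made up 1.20% of reads in Molm-14 with DMSO, 0.834% ± 0.175 (SD, n = 3) in MV4-11 and 0.995% ± 0.0249 in SKNO-1. The MV4-11 libraries over 10% mitochondrial reads were at 0.721% and 0.746%, and the other one was at 1.04%, above the SKNO-1 libraries. Per kilobase of the longest annotated transcript, which is the scale used wherever genes are compared, HSP90AB1, the constitutive cytosolic HSP90, was the highest member in all 3 lines, at 870.2, 479 and 508 CPM per kb with DMSO (Molm-14 first, then MV4-11, then SKNO-1). HSPA8, the constitutive HSP70, took the second place in Molm-14 (487) and in SKNO-1 (324) but the sixth in MV4-11 (168), where 2 of the 3 DMSO libraries had low values. The ER HSP90 (HSP90B1) followed at 408, 279 and 293 CPM per kb. CCT8 was the highest TRiC subunit in every line, at 233, 258 and 251 CPM per kb, and its neighbours in the order changed from line to line, as the plot of levels per kb shows.

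**Figure D1:**
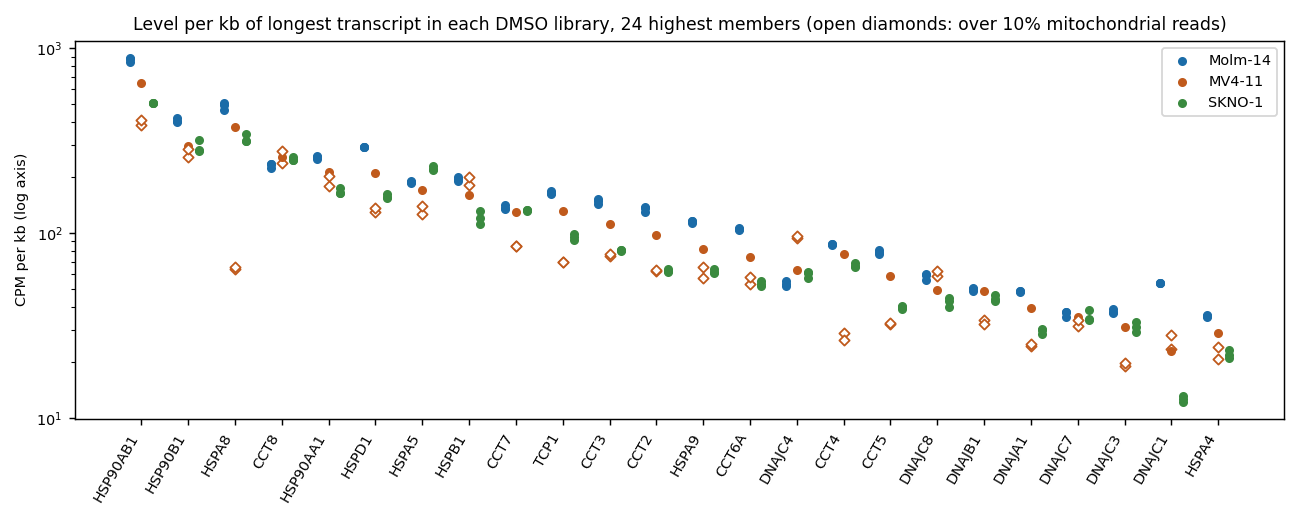
Level of the 24 highest members in each DMSO library, in CPM per kb of the longest annotated transcript on a log axis, with genes along the horizontal axis, 1 colour for each line and 1 point for each library. Open diamonds are MV4-11 libraries with over 10% mitochondrial reads, which lie far below the third MV4-11 library for HSPA8 and TCP1 and close to it for HSP90B1 and CCT8.

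Between lines with DMSO, the chaperone levels of Molm-14 stood above those of the others for most members. The mean was highest in Molm-14 for 43 of the 69 members (62.3%), against 39.6% of 16262 genes read at 1 CPM or more in at least 3 libraries, and MV4-11 took the middle place for 52.2% of members and 52.9% of all these genes. In the limma test, 32 members were lower and 12 higher in MV4-11 than in Molm-14, where 27.9% and 26.2% of all genes tested were. Further, 26 were lower and 15 higher in SKNO-1 than in Molm-14, where 32.7% and 32.5% were. The MV4-11 against Molm-14 split was 28 lower and 12 higher over the 14 libraries (25% and 26.5% of all genes), and the median difference went from -0.34 to -0.14. SKNO-1 and MV4-11 differed in 10 members each way (19.4% higher and 22.2% lower among all genes), a split that became 8 higher and 24 lower over the 14 libraries (16.6% and 24.6% of all genes). The count of 10 higher was 4 or 3 without MV4-11 DMSO replicate 1 or 3, 6 without SKNO-1 DMSO replicate 1 or 3, and 17 without MV4-11 DMSO replicate 2 or Molm-14 RMC-4550 replicate 2. A set of members ran the other way and was scarce in Molm-14. DNAJC15, a mitochondrial inner membrane J protein, had at most 2 reads in any Molm-14 library, while it was read at 12, 9.46 and 15.5 CPM in MV4-11 and 17.3, 16.2 and 15.2 CPM in SKNO-1 with DMSO (replicates 1, 2 and 3 in this order, here and below). DNAJA4, a cytosolic J protein, had 0.833, 1.38 and 0.891 CPM in Molm-14, against 16.6, 13.5 and 15 in MV4-11 and 19.5, 24.5 and 22 in SKNO-1, so that the Molm-14 libraries lay below all the others. HSPA2, HSPA1A, HSPA1L, DNAJC12, CCT6B and HSPB7 were also called higher in both other lines than in Molm-14, though the HSPA1A level is uncertain, as described below. DNAJC10, an ER J protein with disulfide reductase activity, showed the opposite order, with 99.6, 103 and 104 CPM for Molm-14, 31.3, 53.7 and 34 for MV4-11 and 16, 14.2 and 14.4 for SKNO-1, with no overlap between lines, and DNAJC1, another ER J protein, had the same order of means (113 ± 0.338, 52.5 ± 5.96 and 26.7 ± 0.954 CPM).

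With RMC-4550, more members were called lower than higher in Molm-14 and SKNO-1, while in MV4-11 most passed in neither direction over all libraries and the counts were near the shares of all genes. In Molm-14, 33 of the 62 members tested were lower and 8 higher at an adjusted p under 0.05, where 25.2% of the 13971 genes tested were lower and 21.5% higher, and the median log2 change was -0.42 for members and -0.06 for all genes. In SKNO-1, 21 of 69 members were lower and 4 higher, against 16.2% and 10.8% of all genes, with medians of -0.27 and -0.05. Fitted on its own 6 libraries, SKNO-1 had 38 lower and 7 higher, where 33.2% and 24.4% of all genes were, and without SKNO-1 RMC-4550 replicate 2 it had 13 lower in the shared fit. In MV4-11, 7 of 69 members were lower and 4 higher, against 8.03% and 5.85% of all genes, with medians of -0.07 and -0.01. Fitted on its own 6 libraries, MV4-11 had 2 lower and 1 higher, where 2.35% and 2.23% of all genes were. Over the 14 libraries, 30 of 68 members were lower and 3 higher in MV4-11, where 19.6% and 8.85% of all genes were, and the median was -0.24. Without MV4-11 RMC-4550 replicate 3 alone, the count of lower members was 3. The count of higher members was 2 without MV4-11 DMSO replicate 1 or 3 or RMC-4550 replicate 2, and 7 without DMSO replicate 2. Over the same 14 libraries Molm-14 had 41 lower and 9 higher, against 32.1% and 26.6% of all genes, and SKNO-1 had 38 lower and 5 higher, against 32.1% and 21.2%.

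Counting libraries instead of p-values, all 3 RMC-4550 libraries lay below all 3 DMSO libraries for 40 of 62 members in Molm-14, 11 of 69 in MV4-11 and 40 of 69 in SKNO-1, where 33.1%, 13.5% and 35.4% of all genes did. All 3 lay above for 9, 6 and 7 members, against 26.9%, 11.1% and 26.6% of all genes. Called lower in every line were HSP90AA1, HSPA4L, HSPA14, DNAJB5, DNAJB11 and HSPE1, and called higher in every line were CCT6B and DNAJB12. These calls are from the fit shared by the lines. With each line fitted alone, most of them were lost in MV4-11, those of CCT6B, DNAJB11 and DNAJB12 included. The DNAJB12 call was then also lost in Molm-14. A further 10 members were lower in Molm-14 and SKNO-1 (CCT2, CCT3, CCT5, CCT6A, CCT7, HSPA4, HSPH1, DNAJA3, DNAJC9 and DNAJC10), and 17 were tested in all 3 lines and passed in none. Another 6, not tested in Molm-14 for their low levels, passed in neither other line (DNAJB13, DNAJC12, DNAJC15, HSPA1A, HSPA1L and HSPA2).

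**Figure D2:**
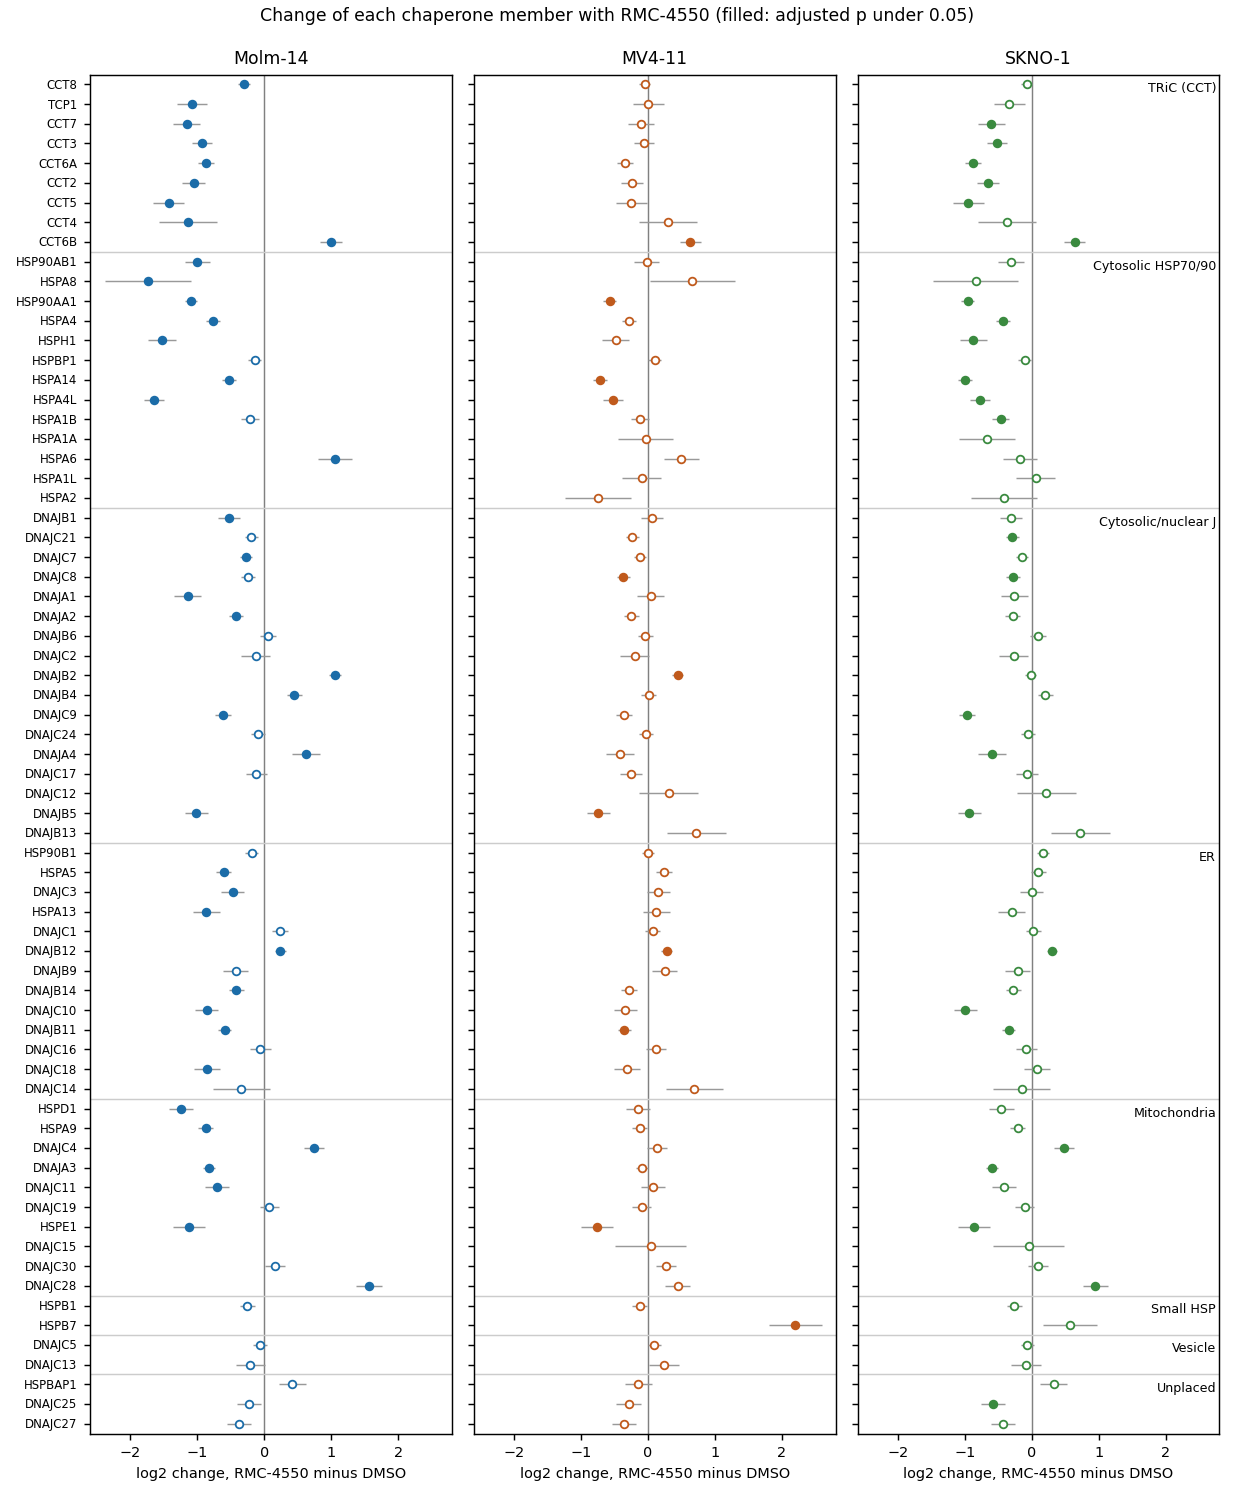
Log2 change with RMC-4550 of each of the 69 members (rows, by compartment and then by mean level) for the lines Molm-14, MV4-11 and SKNO-1, from the limma fit over 18 libraries. Points are estimates, bars are standard errors and filled points passed an adjusted p under 0.05. Filled points lie left of 0 for 33 members for Molm-14, 7 for MV4-11 and 21 for SKNO-1, and members not tested in Molm-14 have no point there.

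Both cytosolic HSP90 genes fell in Molm-14, and the inducible one, HSP90AA1, did so in all 3 lines. HSP90AA1 (ENSG00000080824) was read at 913, 886 and 911 CPM in Molm-14 with DMSO and 395, 469.6 and 408 CPM with RMC-4550. In MV4-11 it was read at 630.0, 756 and 717 and then 493, 490.0 and 432 CPM, and in SKNO-1 at 617, 578 and 578 and then 337, 288 and 291 CPM. The treated libraries lay below the DMSO libraries in each line, and of the 4 libraries rich in mitochondrial reads only MV4-11 DMSO replicate 1 was the lowest of its group. The log2 changes were -1.10 (SE 0.10), -0.57 (SE 0.10) and -0.96 (SE 0.10), with limma adjusted p-values of 2.9e-07, 0.00074 and 2.2e-06. HSP90AB1 (ENSG00000096384) fell in Molm-14, from 2264, 2344 and 2372 to 1337, 861 and 1362 CPM (log2 change -1.002 (SE 0.19), limma adjusted p 0.00046). In SKNO-1 the groups also stood apart, at 1356, 1361 and 1359.8 and 1129, 1072 and 1084 CPM, but the change of -0.31 (SE 0.19) did not pass over 18 libraries (limma adjusted p 0.25; 2.2e-05 over 14). Its MV4-11 change was -0.02 and became -0.36 over the 14 libraries (limma adjusted p 0.00086). Per kb, HSP90AB1 exceeded HSP90AA1 by 3.38 times for Molm-14, 2.40 for MV4-11 and 3.02 for SKNO-1 with DMSO, and by 3.67, 3.44 and 4.71 times with RMC-4550.

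HSPA8 (ENSG00000109971), the main HSP70 of unstressed cytosol, differed strongly between libraries of 1 group. It was read at 1141, 1209 and 1251 CPM in Molm-14 with DMSO and 607, 124 and 618 with RMC-4550, at 158, 923 and 162 and 218, 660.2 and 648 CPM in MV4-11, and at 844, 776 and 777 and 454, 463 and 424 CPM in SKNO-1. The 4 lowest values, 124 to 218 CPM, are those of the 4 libraries with over 10% mitochondrial reads, and the part of that share in the HSPA8 level was not tested. Over all libraries HSPA8 fell in Molm-14 (log2 change -1.74 (SE 0.64), limma adjusted p 0.035) and passed in neither other line (MV4-11 0.66 (SE 0.64), SKNO-1 -0.84 (SE 0.64)). That call rested on Molm-14 RMC-4550 replicate 2 in size, with -0.97 over the 14 libraries, and was lost when that replicate or any 1 of the 3 Molm-14 DMSO replicates was left out of the 18. Its changes over the 14 libraries were -0.97, -0.50 and -0.84, all 3 called (limma adjusted p 7.6e-10, 0.00019 and 1.4e-09), so that its direction in MV4-11 turned with the libraries used.

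The HSP110 genes, whose products release nucleotide from HSP70, were lower in Molm-14 and SKNO-1. HSPH1 went from 209, 221 and 219 to 89.3, 53.4 and 88.5 CPM in Molm-14, from 83.3, 145 and 87.2 to 60.4, 86.3 and 73.7 in MV4-11 and from 90.7, 83.1 and 81 to 50.3, 46.9 and 42.2 in SKNO-1. Groups were apart in Molm-14 and SKNO-1, where the changes of -1.53 (SE 0.21) and -0.87 (SE 0.21) passed (limma adjusted p 2.4e-05 and 0.0049), and they overlapped in MV4-11, where -0.48 (SE 0.21) passed only over the 14 libraries (-0.86, limma adjusted p 1.8e-05). HSPA4L was called lower in every line, at 30.9, 32.7 and 29.6 CPM with DMSO and 11.2, 8.07 and 10.7 with RMC-4550 in Molm-14 (log2 change -1.65 (SE 0.15)), with changes of -0.52 (SE 0.15) in MV4-11 and -0.77 (SE 0.15) in SKNO-1 (limma adjusted p 5.5e-07, 0.033 and 0.0014). The MV4-11 call was lost without any 1 of 4 MV4-11 libraries (replicate 1 or 2 with DMSO, replicate 1 or 3 with RMC-4550), and the change ranged from -0.66 to -0.36 over single omissions. HSPA4 fell in Molm-14 (-0.77) and SKNO-1 (-0.43), and was at -0.29 (SE 0.10) in MV4-11. HSPA14, an HSP70 found on ribosomes, was called lower in all 3 lines (-0.52 (SE 0.11), -0.71 (SE 0.11) and -1.003 (SE 0.11); limma adjusted p 0.00084, 0.00026 and 3.7e-06), and its groups did not overlap in any of them.

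The stress-inducible HSP70 genes were read at low levels in these cultures. HSPA1B had 11.8 ± 1.01 CPM for Molm-14, 12.1 ± 1.17 for MV4-11 and 10.3 ± 0.595 for SKNO-1 under DMSO (SD, n = 3), and the only called change was a fall in SKNO-1 to 7.5 ± 1.48 CPM (-0.47 (SE 0.13), limma adjusted p 0.016), which was lost without any 1 of 4 SKNO-1 libraries. HSPA1A had 1 to 6 reads in Molm-14 libraries and was read at 3.61, 2.92 and 4.79 CPM in MV4-11 and 6.41, 6.24 and 5.74 in SKNO-1 with DMSO. The 2 genes are near-identical copies whose reads the counting may split or leave out, so that their levels and the split between them are uncertain. HSPA6, which shares much of its sequence with the pseudogene HSPA7, was read at 1.28, 0.98 and 1.23 CPM and 1.64, 3.52 and 2.49 with RMC-4550 in Molm-14, a called rise of 1.06 (SE 0.26) at a level of few reads (17 to 55) and with the highest value in replicate 2 (limma adjusted p 0.0031).

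Heat shock factors bind repeats of the unit GAA in alternating orientation. The 250 bases before the start site were searched, on both strands, in the RefSeq promoters of GRCh38.p14, which held 65 of the 69 members. A run of 3 units (GAANNTTCNNGAA or TTCNNGAANNTTC) was found in 3 of 65 members (4.62%) and in 0.439% of 27305 promoters, and a run of 2 units (GAANNTTC or TTCNNGAA), which the longer run contains, in 11 of 65 (16.9%) against 11.7%. The members with the longer run are shown because they include HSPA8 and HSPA6, which were called in opposite directions in Molm-14, with the run in capitals, 5′ to 3′ on the gene's strand.
HSPA8 upstream run: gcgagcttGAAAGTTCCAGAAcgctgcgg
HSPA8 downstream run: cgggccccTTCTGGAAGGTTCtaagatag
HSPA6: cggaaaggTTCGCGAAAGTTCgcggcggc
DNAJB6: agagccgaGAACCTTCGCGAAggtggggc
The HSPA8 stretches lie on the minus strand at chr11:123062346-123062374 and chr11:123062171-123062199, both overlapping an annotated exon, that of HSPA6 on the plus strand at chr1:161524458-161524486 and that of DNAJB6 on the plus strand at chr7:157336865-157336893, the last 2 outside annotated exons. HSP90AA1, HSP90AB1 and HSPH1 had no match to these letters in this window, which says nothing about binding of the factor. DNAJB6, a J protein of cytosol and nucleus, passed in no line (0.06 for Molm-14, -0.04 for MV4-11 and 0.10 for SKNO-1).

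Of all 13 genes in the cytosolic HSP70 and HSP90 group, 7 of 10 tested were lower and 1 higher in Molm-14, 3 of 13 were lower in MV4-11 and 6 of 13 in SKNO-1, with none higher in the last 2 lines. Shares of all genes tested were 25.2%, 8.03% and 16.2% lower and 21.5%, 5.85% and 10.8% higher, and those over the 14 libraries are given above. The median log2 changes of the group were -0.88, -0.12 and -0.47. Counts of lower genes over the 14 libraries were 7, 7 and 9, and the medians -0.75, -0.50 and -0.47.

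**Figure D3:**
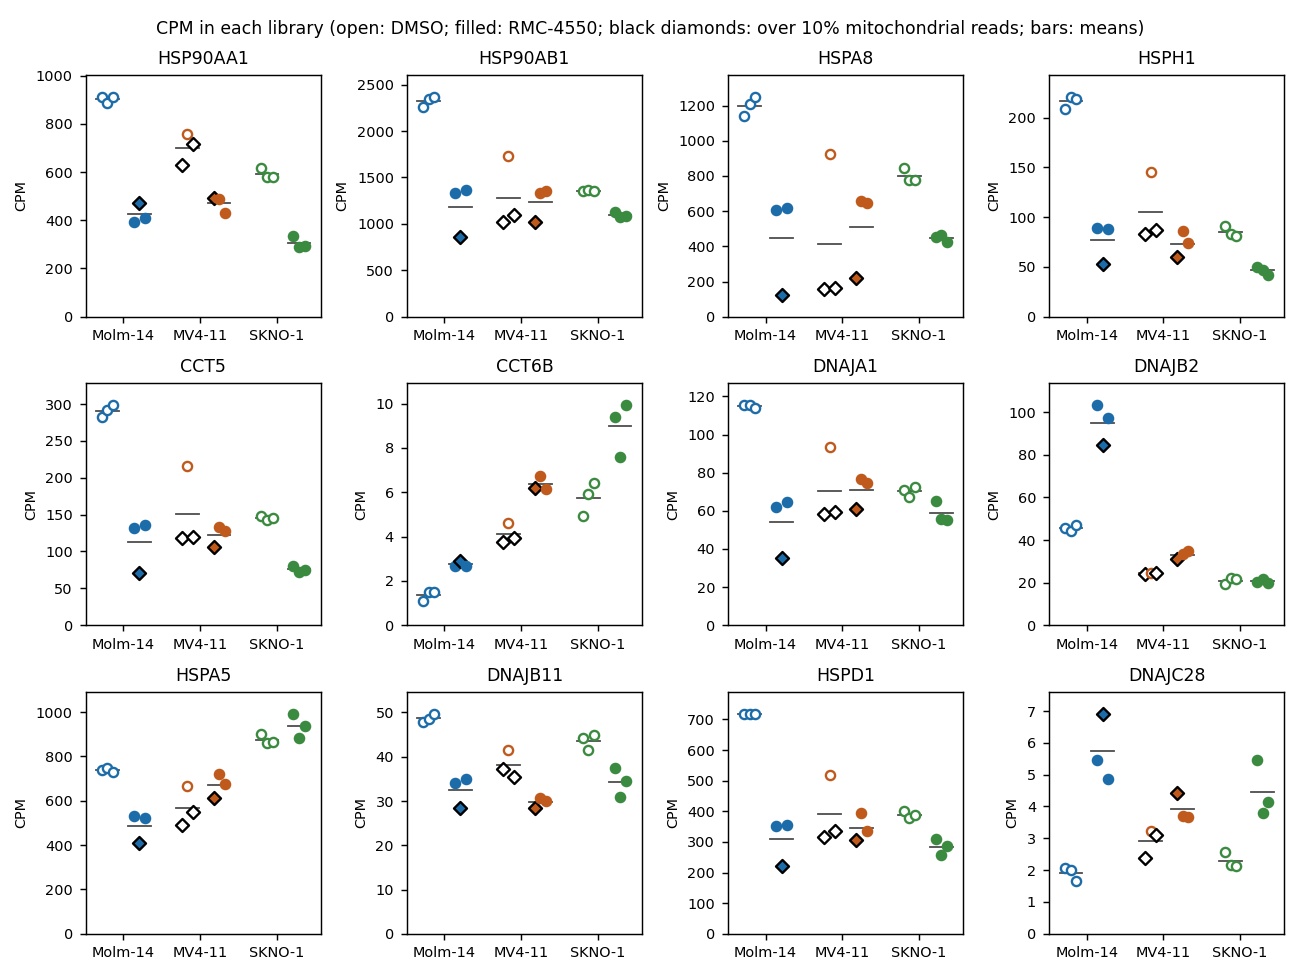
CPM of 12 members in each library (vertical axis, from 0; horizontal axis, line), with DMSO open, RMC-4550 filled, a bar at each group mean and black diamonds for the 4 libraries with over 10% mitochondrial reads. The diamonds are the lowest points for HSPA8, CCT5 and DNAJA1 in their groups, but lie with the circles for DNAJB2 in MV4-11, and the RMC-4550 points of HSP90AA1 lie below the DMSO points in all 3 lines.

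The TRiC ring has 8 kinds of subunit, and the constitutive gene for each was called lower with RMC-4550 in Molm-14. CCT5 fell from 282, 292 and 299 to 132, 70.5 and 136 CPM in Molm-14 and from 148, 143 and 145 to 80.4, 72.2 and 74.3 in SKNO-1, and was read at 118, 216 and 119 and 106, 133 and 128 CPM in MV4-11. Treated and control libraries were apart in the first 2 and overlapped in MV4-11, where DMSO replicate 2 was well above the other DMSO libraries. Its log2 changes were -1.43 (SE 0.23), -0.94 (SE 0.23) and, in MV4-11, -0.25 (SE 0.23) (limma adjusted p 0.00011, 0.0053 and 0.54). The other falls in Molm-14 ran from -1.16 for CCT7 and -1.14 for CCT4 over -1.08 for TCP1, -1.06 for CCT2, -0.93 for CCT3 and -0.87 for CCT6A to -0.30 for CCT8 (limma adjusted p 2.2e-05 to 0.041). CCT4, at 152, 40.7 and 159 CPM in the treated libraries, changed by -0.49 over the 14 libraries, which leave out the low replicate 2. In SKNO-1, CCT2, CCT3, CCT5, CCT6A and CCT7 passed, with changes from -0.94 to -0.51. The CCT4 call in Molm-14 was lost in 10 of the 18 omissions of 1 library. CCT7 was lost without any 1 SKNO-1 library and CCT3 without RMC-4550 replicate 2 or 3. In MV4-11 none of the 8 passed over 18 libraries, and over 14 their changes ran from -0.73 (CCT5) to -0.11 (CCT8). Over the 18 libraries, 25.2%, 8.03% and 16.2% of all genes tested were lower (Molm-14, MV4-11, SKNO-1).

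CCT8 had the smallest fall of the 8 in Molm-14, from 451, 477 and 473 to 359.7, 387 and 389 CPM, with groups that did not overlap, and was at -0.05 (SE 0.08) in MV4-11 and -0.08 (SE 0.08) in SKNO-1, which did not pass (limma adjusted p 0.75 and 0.55). The level of CCT8 per kb stood at 1.41 times that of TCP1 in Molm-14 with DMSO and at 2.35 times with RMC-4550. It was 2.64 times that of TCP1 in SKNO-1 and 3.16 times with the inhibitor, and 2.85 times in both MV4-11 groups. A difference between subunits was not tested. CCT6B, the second gene for the zeta subunit and best known from testis, ran against the rest and was called higher in every line. It was read at 1.11, 1.5 and 1.5 CPM and then 2.68, 2.88 and 2.66 in Molm-14, at 3.77, 4.6 and 3.95 and 6.18, 6.73 and 6.14 in MV4-11 and at 4.94, 5.92 and 6.4 and 9.39, 7.61 and 9.93 in SKNO-1, with no overlap in any line. The changes were 0.997 (SE 0.16), 0.63 (SE 0.16) and 0.64 (SE 0.16) (limma adjusted p 0.00011, 0.014 and 0.0069), at 20 to 216 reads a library, and the MV4-11 call was lost over the 14 libraries (0.48, limma adjusted p 0.15) and without DMSO replicate 1 or 3 or RMC-4550 replicate 2. CCT6A exceeded CCT6B per kb by 258 times for Molm-14, 50.4 for MV4-11 and 31.0 for SKNO-1 with DMSO, and by 70.8, 25.4 and 10.9 times with RMC-4550. Across the 9 TRiC genes the median change was -1.06 for Molm-14, -0.07 for MV4-11 and -0.51 for SKNO-1, and -0.76, -0.43 and -0.51 over the 14 libraries.

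J proteins bring clients to HSP70 and start its ATPase, and in the cytosol and nucleus they were called in both directions in the FLT3-ITD lines. Of all genes, 25.2% were lower and 21.5% higher in Molm-14, 8.03% and 5.85% were so in MV4-11, and 16.2% and 10.8% in SKNO-1. In Molm-14, 6 of 15 tested were lower and 3 higher (median -0.20). In MV4-11, 2 of 17 were lower and 1 higher (-0.12), and in SKNO-1, 5 of 17 were lower and none higher (-0.26). The counts of higher members in Molm-14 and MV4-11 were near the shares of all genes. The counts of lower members over the 14 libraries were 10, 6 and 9, where 32.1%, 19.6% and 32.1% of all genes were lower. DNAJA1, a main partner of HSPA8, fell in Molm-14 from 115, 115 and 114 to 62.1, 35.2 and 64.4 CPM (-1.14 (SE 0.20), limma adjusted p 0.00026), and DNAJB1, the stress-inducible J protein of the cytosol, from 114, 110.4 and 113 to 94, 58 and 86 CPM (-0.53 (SE 0.16), limma adjusted p 0.014). Neither passed in the other lines: DNAJA1 was at 0.04 (SE 0.20) in MV4-11 and -0.26 (SE 0.20) in SKNO-1, and DNAJB1 at 0.06 (SE 0.16) and -0.31 (SE 0.16). Both passed over the 14 libraries as falls in all 3 lines, between -0.86 (DNAJA1 in Molm-14) and -0.23 (DNAJB1 in MV4-11), and in MV4-11 this turned the sign. The DNAJB1 call in Molm-14 was lost without RMC-4550 replicate 2 alone (-0.32). DNAJB5 was the J protein of this group lower in every line, at 4.82 ± 0.476, 4.76 ± 0.343 and 4.21 ± 0.84 CPM with DMSO (SD, n = 3) and 2.37 ± 0.304, 2.85 ± 0.291 and 2.17 ± 0.229 with RMC-4550, at 36 to 109 reads a library. DNAJC9, a J protein that also binds histones, fell by 0.62 on the log2 scale in Molm-14 and by 0.97 in SKNO-1 (limma adjusted p 0.00076 and 2.6e-05), where its CPM went from 12.8, 11.6 and 12.1 to 6.34, 6.12 and 6.16.

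DNAJB2, a J protein with ubiquitin-interacting motifs that is best known from neurons, rose in the FLT3-ITD lines. It went from 45.7, 44.2 and 47 to 103, 84.5 and 97.2 CPM in Molm-14 and from 24.1, 24.4 and 24.5 to 31.2, 33.2 and 35 in MV4-11, and was read at 19.2, 22 and 21.7 and 20.3, 21.7 and 20 CPM in SKNO-1. Groups did not overlap in Molm-14 and MV4-11, and they overlapped in SKNO-1. The libraries rich in mitochondrial reads did not stand apart for this gene in MV4-11 DMSO, and that of Molm-14 was the lowest of the 3 treated ones. The changes were 1.05 (SE 0.09), 0.44 (SE 0.09) and -0.02 (SE 0.09) (limma adjusted p 1.7e-07, 0.0026 and 0.9). The MV4-11 call did not hold when each line was fitted alone. DNAJB4 also rose in Molm-14 (0.45 (SE 0.11), limma adjusted p 0.0035), to 26.8, 30.2 and 25.3 CPM from 22.3, 19.5 and 18.6, with 0.01 (SE 0.11) in MV4-11 and 0.20 (SE 0.11) in SKNO-1, which did not pass. DNAJA4 was called higher in Molm-14 (0.63 (SE 0.21), limma adjusted p 0.021), with overlapping groups near 1 CPM, and lower in SKNO-1 (-0.59 (SE 0.21), 0.045), from 19.5, 24.5 and 22 to 15.2, 15.6 and 13 CPM. The Molm-14 call was lost over the 14 libraries (0.41), and the SKNO-1 call without any 1 SKNO-1 library. DNAJC21 and DNAJC8 had small called falls in SKNO-1 (-0.29 and -0.28), and DNAJC8 in MV4-11 (-0.37), of which DNAJC21 was lost without any 1 of 4 SKNO-1 libraries and DNAJC8 without any 1 of 4 MV4-11 libraries in MV4-11. The DNAJC8 call in SKNO-1 was lost in 13 of the 18 omissions of 1 library, those of other lines included.

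Many ER chaperone genes carry the ER stress response element, CCAAT and CCACG set 9 bases apart, which the factors of the unfolded protein response use. The element (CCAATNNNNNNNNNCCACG, or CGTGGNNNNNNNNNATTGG on the other strand) was found in the same window of 2 of 65 members, both in the ER group, and in 0.0806% of all promoters. Both genes are shown because their responses are compared next, with the element in capitals.
HSPA5: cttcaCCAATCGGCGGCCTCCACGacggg
HSP90B1 upstream element: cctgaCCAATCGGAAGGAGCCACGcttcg
HSP90B1 downstream element: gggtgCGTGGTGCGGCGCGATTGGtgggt
The HSPA5 stretch is on the minus strand at chr9:125241386-125241414, and those of HSP90B1 are on the plus strand at chr12:103930211-103930239 and chr12:103930316-103930344 in GRCh38.p14. The HSPA5 stretch is outside annotated exons, and both HSP90B1 stretches overlap an annotated exon.

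Most ER chaperones were called lower in Molm-14, where 7 of 13 were lower and 1 higher (median -0.43), and mostly did not pass in MV4-11 (1 lower, 1 higher, 0.12) or SKNO-1 (2 lower, 1 higher, -0.08). Of all genes, 25.2%, 8.03% and 16.2% were lower. With the 14 libraries alone 9, 4 and 5 were lower, with medians of -0.31, -0.11 and -0.08. There 32.1%, 19.6% and 32.1% of all genes were lower. HSPA5, the ER HSP70 (BiP), was read at 739, 748 and 728 CPM in Molm-14 with DMSO and 530.1, 409.6 and 524 with RMC-4550, at 493, 668 and 547 and 614, 720.4 and 675 in MV4-11, and at 903, 860.1 and 864 and 993, 883 and 938 in SKNO-1. Only the Molm-14 groups were apart, and the change there was -0.61 (SE 0.12) (limma adjusted p 0.00055), with 0.24 (SE 0.12) in MV4-11 and 0.10 (SE 0.12) in SKNO-1, neither of which passed (limma adjusted p 0.2 and 0.58). HSP90B1, whose promoter has the same element, changed by -0.19 (SE 0.09) for Molm-14, -0.0031 (SE 0.09) for MV4-11 and 0.16 (SE 0.09) for SKNO-1, and passed in no line over 18 libraries. Its Molm-14 groups did not overlap (1229.9, 1275 and 1206 and 1031, 1155 and 1068 CPM), and the change was called over the 14 libraries (-0.24, limma adjusted p 0.014). Per kb, HSPA5 stood at 0.463 of HSP90B1 in Molm-14 with DMSO and 0.349 with RMC-4550, and at 0.765 and 0.731 in SKNO-1. HSPA13, a truncated HSP70 of microsomes, and DNAJC18 fell in Molm-14 by 0.86 and 0.86 on the log2 scale, and DNAJC3 and DNAJB14 by 0.47 and 0.42.

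DNAJC10, which helps reduce disulfides in proteins bound for degradation, fell where its level was highest and where it was lowest. It went from 99.6, 103 and 104 to 59.6, 47 and 63.7 CPM in Molm-14 (-0.86 (SE 0.17), limma adjusted p 0.00066) and from 16, 14.2 and 14.4 to 7.59, 7.24 and 7.49 in SKNO-1 (-0.99 (SE 0.17), 0.00038), and was at -0.34 (SE 0.17) in MV4-11, which passed only over the 14 libraries (-0.75, 0.00039). DNAJB11, a J protein partner of HSPA5 in the ER lumen, was called lower in every line, at 48, 48.6 and 49.7 and 34.1, 28.4 and 35.1 CPM in Molm-14, 37.3, 41.4 and 35.4 and 28.5, 30.6 and 29.9 in MV4-11 and 44.2, 41.5 and 44.9 and 37.6, 31 and 34.6 in SKNO-1. No group overlapped its control, and the changes were -0.59 (SE 0.10), -0.36 (SE 0.10) and -0.34 (SE 0.10) (limma adjusted p 0.00013, 0.021 and 0.013). The SKNO-1 call was lost without DMSO replicate 3 or RMC-4550 replicate 2, and the MV4-11 call without any 1 of 3 MV4-11 libraries. DNAJB12, a J protein anchored in the ER membrane with its J domain in the cytosol, was called higher in every line, with 0.24 (SE 0.08) for Molm-14, 0.28 (SE 0.08) for MV4-11 and 0.30 (SE 0.08) for SKNO-1 (limma adjusted p 0.018, 0.025 and 0.0086). Its CPM rose from 51.7, 51.6 and 53.8 to 66.1, 56.9 and 62.7, from 48.5, 55.2 and 49.6 to 64.4, 61.3 and 59.7 and from 49.3, 46.9 and 46.4 to 61.4, 56.4 and 57.6, without overlap, while its close relative DNAJB14 was at -0.42, -0.28 and -0.27, called only in Molm-14. Over the 14 libraries the DNAJB12 change in MV4-11 was 0.13 and not called, and the Molm-14 call was lost without DMSO replicate 1 or 2 or RMC-4550 replicate 1.

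In the mitochondrial group, 5 of 9 tested were lower and 2 higher in Molm-14 (median -0.70), 1 of 10 was lower in MV4-11 (-0.03), and 2 were lower and 2 higher in SKNO-1 (-0.16). Among all genes tested, 25.2% were lower and 21.5% higher in Molm-14, 8.03% and 5.85% in MV4-11, and 16.2% and 10.8% in SKNO-1. The MV4-11 and SKNO-1 counts of lower genes were near these shares. The shares over the 14 libraries are given above. The lower counts over the 14 libraries were 5, 4 and 5. HSPD1, the chaperonin HSP60 of the matrix, was read at 719, 717 and 718 CPM in Molm-14 with DMSO and 353, 220.2 and 356 with RMC-4550, at 317, 517 and 336 and 307, 393 and 335 in MV4-11, and at 399.9, 378 and 387 and 310.0, 257 and 285 in SKNO-1. The Molm-14 groups were apart, as were those of SKNO-1. The Molm-14 change of -1.25 (SE 0.18) passed (limma adjusted p 5.4e-05), and -0.15 (SE 0.18) in MV4-11 and -0.45 (SE 0.18) in SKNO-1 did not (0.66 and 0.079). All 3 lines passed over the 14 libraries, at -1.02, -0.51 and -0.45. HSPE1, the lid of the same chaperonin (HSP10), was called lower in all 3 lines (-1.13 (SE 0.24), -0.77 (SE 0.24) and -0.86 (SE 0.24); limma adjusted p 0.0012, 0.043 and 0.013). It was read at 19.7, 17.6 and 16 CPM and then 5.85, 12 and 7.47 in Molm-14. It has many pseudogenes and a read-through transcript with MOB4, so that its count is uncertain, and its MV4-11 call was lost in 14 of the 18 omissions of 1 library and its SKNO-1 call without DMSO replicate 3 or RMC-4550 replicate 2. HSPA9, the matrix HSP70, fell in Molm-14 from 535, 548 and 546 to 313, 271 and 307 CPM (-0.87 (SE 0.11), limma adjusted p 1.1e-05), with -0.12 (SE 0.11) in MV4-11 and -0.21 (SE 0.11) in SKNO-1. DNAJA3, the matrix J protein that works with HSPA9, fell in Molm-14 (-0.82 (SE 0.09), 3.1e-06) and in SKNO-1 (-0.59 (SE 0.09), 0.00014), and its MV4-11 groups overlapped (-0.09 (SE 0.09)).

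DNAJC4 and DNAJC28, J-domain genes whose roles are little studied, rose in Molm-14 and SKNO-1. DNAJC28 went from 2.06, 2.02 and 1.67 to 5.47, 6.92 and 4.86 CPM in Molm-14 and from 2.58, 2.16 and 2.12 to 5.46, 3.8 and 4.14 in SKNO-1, at 30 to 118 reads a library, and was read at 2.37, 3.22 and 3.11 and 4.44, 3.7 and 3.65 CPM in MV4-11. No treated group overlapped its control. The changes were 1.56 (SE 0.19), 0.95 (SE 0.19) and, in MV4-11, 0.44 (SE 0.19), which did not pass (limma adjusted p 8.4e-06, 0.0014 and 0.15). DNAJC4 went from 71, 69.5 and 74 to 111, 139 and 112 CPM in Molm-14 and from 76.3, 82.8 and 81 to 103, 117 and 115 in SKNO-1 (0.75 (SE 0.15) and 0.48 (SE 0.15), limma adjusted p 0.00085 and 0.027). In each line its highest values in a group were in the libraries rich in mitochondrial reads where there were any, and the SKNO-1 call was lost without any 1 of 5 SKNO-1 libraries. In MV4-11 the DNAJC4 change was 0.14 (SE 0.15), and 0.38 over the 14 libraries, which passed (limma adjusted p 0.003).

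Of the small heat shock proteins, HSPB1 (HSP27) had 286 ± 7.08 CPM for Molm-14, 264 ± 28.3 for MV4-11 and 176 ± 13.9 for SKNO-1 under DMSO, and changed by -0.25 (SE 0.11), -0.12 (SE 0.11) and -0.26 (SE 0.11), none of which passed over 18 libraries. HSPB7, a small heat shock protein known from heart and muscle, was barely read in Molm-14 with DMSO (1 to 3 reads a library) and rose in MV4-11 from 0.969, 1.18 and 0.778 to 3.54, 5.06 and 5.13 CPM (2.20 (SE 0.40), limma adjusted p 0.0014), with no overlap. It was not tested in Molm-14, where the treated libraries were at 1.53, 0.512 and 0.961 CPM, and was at 0.57 (SE 0.40) in SKNO-1. HSPB7 had a mean close to the limit of the rule and is named outside the rule for named genes. Of the vesicle and unplaced members, DNAJC25 alone passed, in SKNO-1 (-0.58 (SE 0.18), limma adjusted p 0.026). DNAJC5, DNAJC13, DNAJC27 and HSPBAP1 passed in no line over 18 libraries, with changes between -0.43 (DNAJC27 in SKNO-1) and 0.42 (HSPBAP1 in Molm-14). Calls gained over the 14 libraries were those of DNAJC27 in MV4-11 (-0.59) and SKNO-1 (-0.43), DNAJC13 in MV4-11 (-0.28), DNAJC25 in Molm-14 (-0.39) and HSPBAP1 in SKNO-1 (0.33).

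Summed over the members of a compartment, the largest drop in CPM was that of the cytosolic HSP70 and HSP90 genes in Molm-14, from 4931 ± 114 to 2316 ± 549 (SD, n = 3), and their sum went from 2726 ± 929 to 2477 ± 429.6 in MV4-11 and from 3059.5 ± 69.7 to 2059 ± 71.9 in SKNO-1. The TRiC sum went from 2573 ± 52.7 to 1416 ± 285 in Molm-14, from 1731 ± 387 to 1601 ± 112 in MV4-11 and from 1786 ± 23.2 to 1347 ± 63.9 in SKNO-1, and the mitochondrial sum from 1495 ± 6.98 to 839 ± 85.9, from 978 ± 147 to 905 ± 44.7 and from 918 ± 14.02 to 774 ± 43.7. The ER sum went from 2765 ± 42.8 to 2197 ± 83.1 in Molm-14 and was 1930.1 ± 241 and 2042 ± 123 in MV4-11 and 2348 ± 113 and 2473 ± 178 in SKNO-1. For Molm-14 and for SKNO-1, treated and control sums did not overlap for TRiC, for cytosolic HSP70 and HSP90 or for the mitochondria, and for the ER they overlapped in SKNO-1 but not in Molm-14. The MV4-11 sums overlapped in each of these compartments, and within a group the libraries with over 10% mitochondrial reads had the lowest sums, except for the mitochondrial sum of MV4-11 with RMC-4550, which was lowest in replicate 3.

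**Figure D4:**
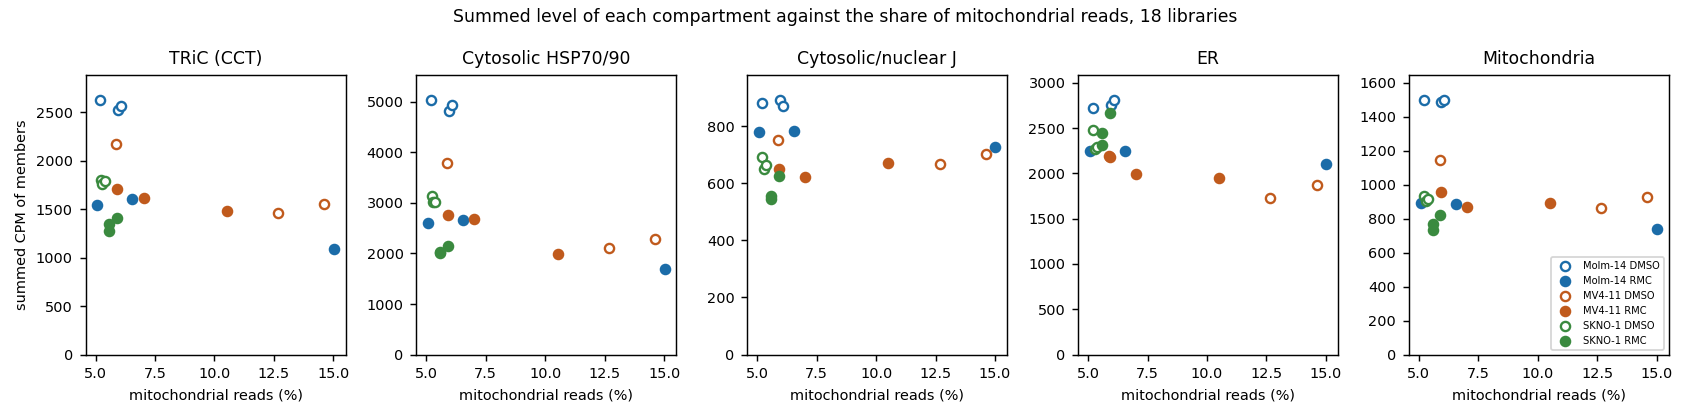
Summed CPM of the members of 5 compartments (vertical axes, from 0) against the percent of reads in mitochondrial genes (horizontal axis) in the 18 libraries, with DMSO open and RMC-4550 filled. The 4 libraries above 10% are the lowest of their groups in the TRiC and cytosolic HSP70/90 panels, and the Molm-14 DMSO libraries lie highest in each panel.

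Within MV4-11 the comparison can be made inside each class of libraries. Among its 3 libraries under 10% mitochondrial reads (2 treated, 1 control), the median member change was -0.24 and 51 of 69 members were negative. Among its 3 libraries over 10% (1 treated, 2 controls), the median was -0.02 and 38 were negative. HSP90AA1 changed by -0.72 in the first class and -0.45 in the second, and DNAJB2 by 0.48 and 0.36. HSPA8 changed by -0.50 and 0.45, CCT5 by -0.73 and -0.16 and HSPD1 by -0.51 and -0.09. No test was run within the second class, and the first class is the MV4-11 comparison of the 14 libraries, whose test takes its spread from the other groups. Molm-14 has 1 library over 10%, a treated one, and SKNO-1 has none.

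**Figure D5:**
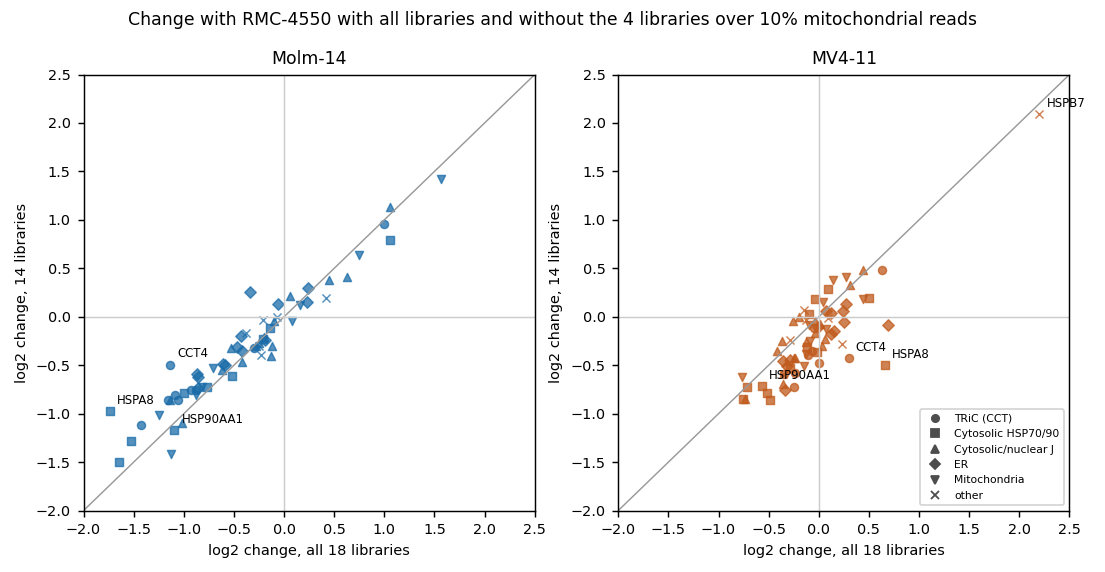
Log2 change with RMC-4550 of each member fitted over all 18 libraries (horizontal axis) and over the 14 libraries under 10% mitochondrial reads (vertical axis) in Molm-14 and MV4-11, with symbols by compartment and the line of equality in grey. HSP90AA1 lies near the line in both panels, while HSPA8 moves from -1.74 to -0.97 in Molm-14 and from 0.66 to -0.50 in MV4-11.

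The responses of the 2 FLT3-ITD lines were then set against each other in the same fit. Of 62 members tested, 18 had a lower (more negative) response in Molm-14 than in MV4-11 and 3 a higher one, where 9.12% and 10.3% of 13458 genes did. By compartment, 6 of 9 TRiC genes, 5 of 10 cytosolic HSP70 and HSP90 genes, 4 of 9 mitochondrial genes, 2 of 13 ER genes and 1 of 15 J proteins were in the lower set. The differences for CCT5, DNAJA1 and HSPA4L were -1.18 (SE 0.32), -1.18 (SE 0.28) and -1.13 (SE 0.22) (limma adjusted p 0.019, 0.011 and 0.003), and those for HSP90AA1 and HSPA5 were -0.53 (SE 0.14) and -0.85 (SE 0.16) (0.015 and 0.0031). DNAJB2, DNAJA4 and DNAJC28 were the 3 with a higher response in Molm-14. The 14 libraries gave 16 lower and 3 higher, where 7.94% and 9.72% of all genes were. The TRiC count became 4 of 9, and the TRiC median difference went from -0.86 to -0.28. The difference was smaller there for CCT5 (-0.39), DNAJA1 (-0.56), HSPA4L (-0.71) and HSPA5 (-0.55), and close to the first value for HSP90AA1 (-0.46) and DNAJB2 (0.66 against 0.61). The count of lower responses was 8 without MV4-11 DMSO replicate 1 or 3, 9 without MV4-11 RMC-4550 replicate 2 and 28 without MV4-11 DMSO replicate 2, and that of higher ones 6 without MV4-11 DMSO replicate 2 and 5 without MV4-11 RMC-4550 replicate 1.

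Against the mean response of the FLT3-ITD lines, that of SKNO-1 differed in 1 of 62 members over 18 libraries, DNAJB2, at -0.77 (SE 0.11) (limma adjusted p 0.0005), where 2.45% of 12792 genes had a lower and 1.35% a higher response in SKNO-1. No member had a higher response in this limma test, and 3 had one at an unadjusted p under 0.05, with 5 lower. Among all 12792 genes, 1880 were under that limit in either direction. Over the 14 libraries 9 were higher and 3 lower (7.53% and 11.4% of all genes), among them HSPA5 (0.31), HSPA9 (0.39) and HSPD1 (0.31) with a higher response in SKNO-1, and HSPA14 (-0.34) and DNAJC9 (-0.34), with DNAJB2 at -0.83.

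The genes that work with these chaperones were described from lists. Of all genes, 25.2%, 8.03% and 16.2% were called lower (Molm-14, MV4-11, SKNO-1), and 32.1%, 19.6% and 32.1% over the 14 libraries. Among the heat shock factors, HSF1 was read at 108 ± 0.266, 118 ± 4.37 and 134 ± 9.39 CPM with DMSO and changed by 0.05 (SE 0.09), 0.06 (SE 0.09) and -0.18 (SE 0.09), none of which passed. HSF2 was called lower in all 3 lines, from 72.6 ± 1.68 to 51.3 ± 1.9 CPM in Molm-14, 38 ± 1.88 to 26.2 ± 3.21 in MV4-11 and 24.4 ± 1.4 to 13.2 ± 1.04 in SKNO-1 (log2 changes -0.50, -0.54 and -0.88; limma adjusted p 0.00039, 0.00086 and 3.5e-06). HSF4 rose in Molm-14 (1.21 (SE 0.24), 0.0008). Of 19 cytosolic co-chaperones tested, 10 were lower and none higher in Molm-14, 2 lower and 1 higher in MV4-11 and 6 lower in SKNO-1, and 10, 8 and 14 were lower over the 14 libraries. AHSA1, which stimulates the HSP90 ATPase, and CHORDC1, an HSP90 co-chaperone, were called lower in every line, by -0.83, -0.52 and -0.92 for AHSA1 (limma adjusted p 5.3e-05, 0.0089 and 3.7e-05) and -0.91, -0.63 and -0.86 for CHORDC1. STIP1, which links HSP70 to HSP90, fell in Molm-14 and SKNO-1 (-1.28 (SE 0.13) and -0.85 (SE 0.13)), and CDC37, which brings kinases to HSP90, passed in no line (0.13 (SE 0.18), -0.24 (SE 0.18) and -0.13 (SE 0.18)).

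Of 9 partners of TRiC (prefoldin subunits and phosducin-like proteins), 5 were lower and 1 higher in Molm-14, 2 lower in MV4-11 and 3 lower in SKNO-1 (5, 4 and 6 lower over the 14 libraries), with PDCL, a phosducin-like protein, lower in every line (-0.37, -0.42 and -0.47). Of 22 other genes of ER folding and the unfolded protein response, 12 were lower and 1 higher in Molm-14, 2 lower in MV4-11, and 2 lower and 1 higher in SKNO-1. With the 14 libraries 16, 3 and 9 were lower. XBP1, a transcription factor of the unfolded protein response, went from 372, 367 and 373 to 203, 109.7 and 208 CPM in Molm-14 (-1.15 (SE 0.19), limma adjusted p 0.00014), and its changes of 0.27 (SE 0.19) in MV4-11 and -0.38 (SE 0.19) in SKNO-1 did not pass. Of 15 other mitochondrial folding genes and proteases, 9 were lower and 1 higher in Molm-14, 2 lower in MV4-11 and 7 lower in SKNO-1 (11, 8 and 10 lower over the 14 libraries). GRPEL2, a nucleotide exchange factor for HSPA9, and the disaggregase CLPB were lower in every line (-0.65, -0.39 and -0.68 for GRPEL2; -0.78, -0.33 and -0.70 for CLPB). The median changes of these 4 lists in Molm-14 were -0.37 for the cytosolic co-chaperones, -0.37 for the TRiC partners, -0.40 for the ER list and -0.52 for the mitochondrial list, beside -0.06 over all genes.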

How the data were processed

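Poly(A) RNA was sequenced from 18 cultures (total RNA by RNeasy, oligo(dT) beads, PCR and DNA nanoballs, per the labels' protocols). The submitters' processing notes name FastQC, STAR, limma and GRCh38; counter, annotation and strand setting are not given in the sources used here, so a gene and an antisense partner cannot be told apart. The deposited table holds log2 values. They have the form log2 of reads plus 0.5 over a scaled library size: whole reads were recovered for 100% of values under 50 reads (tolerance 0.02). As the unit is log2, no count model was run. CPM here is recovered reads over that size, on the usual CPM scale.

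The log2 values were fitted with limma 3.58.1 in R 4.3.3, with 1 coefficient for each of the 6 groups and a trended prior, and differences were tested two-sided with Benjamini-Hochberg adjustment over all genes tested. Genes needed at least 1 CPM in 3 of the 18 libraries, and in 3 of the line's 6 libraries for a line's test. A call is an adjusted p under 0.05. Alternatives changed the pseudocount, filter, scaling, spread, weights, replicate block, mitochondrial share and libraries. The fit was tested on simulated data. Python 3.11.15 was used for summaries.

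Members, lists and tests were chosen with earlier results of these data known. Genes named were a fixed set of well-known chaperones with the TRiC subunits, the 3 largest called rises and falls of each compartment and line at a mean of at least 5 CPM, and the largest differences between responses and between lines. DNAJB5, DNAJB6, DNAJB13, DNAJB14, DNAJC3, DNAJC5, DNAJC13, DNAJC27, HSPA1L, HSPA4, HSPB7, HSPBAP1 and HSPBP1 stand outside that rule and were named after their values were seen. DNAJC11 is also outside it and is named only among the responses that differed between lines. Levels per kb use the longest GENCODE transcript, and promoters are from RefSeq. 1 marker gene is not reported here.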

Additional observations from a re-analysis of the deposited data

Results flagged for a closer look

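The members below are listed because their response to RMC-4550 differed between lines in a test of the difference itself in the limma fit over 18 libraries (adjusted p under 0.05). The value is the log2 response of Molm-14 minus that of MV4-11 unless stated.

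Lower in Molm-14 among the TRiC genes were CCT5 (-1.18), TCP1 (-1.09), CCT7 (-1.06), CCT3 (-0.86), CCT2 (-0.82) and CCT6A (-0.53). Leaving out 1 library, the call was lost in 8 of 18 omissions for TCP1 and CCT6A, 7 for CCT2, 3 for CCT5 and 2 for CCT7 (MV4-11 DMSO replicates 1 and 3, which also ended the other 4), and in none for CCT3. Over the 14 libraries under 10% mitochondrial reads, CCT2 (-0.28) and CCT6A (-0.17) were not called, and CCT7 (-0.47), CCT3 (-0.40), CCT5 (-0.39) and TCP1 (-0.33) were smaller. CCT2 was also not called with no filter on low values (-0.82), and CCT6A with the mitochondrial share in the fit (-0.27).

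In the cytosol, HSPA4L (-1.13), HSPH1 (-1.04), HSP90AB1 (-0.98), HSP90AA1 (-0.53) and HSPA4 (-0.48) had a lower response in Molm-14, as had the J protein DNAJA1 (-1.18). In the mitochondria these were HSPD1 (-1.10), DNAJC11 (-0.78), HSPA9 (-0.75) and DNAJA3 (-0.73), and in the ER HSPA13 (-0.99) and HSPA5 (-0.85). Calls were lost in 6 of 18 omissions for HSPA13, 4 for HSP90AB1 and 3 for HSPH1, MV4-11 DMSO replicates 1 and 3 among them in each case. Over the 14 libraries, HSPA13 (-0.42) and HSPA4 (-0.19) were not called. The differences still called there were HSPA4L (-0.71), DNAJA1 (-0.56), HSPA5 (-0.55), HSPD1 (-0.51), DNAJA3 (-0.47), HSP90AA1 (-0.46), HSPA9 (-0.43), HSP90AB1 (-0.42), HSPH1 (-0.42) and DNAJC11 (-0.41). With the mitochondrial share in the fit, HSPA4 (-0.33) and DNAJC11 (-0.31) were not called. HSP90AA1 was not called under quantile normalization (-0.37). Single omissions are not given here for HSPA4 and DNAJC11.

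DNAJC28 (1.12), DNAJA4 (1.05) and DNAJB2 (0.61) had a higher response in Molm-14. The DNAJA4 difference was not called over the 14 libraries (0.77), in 5 of 18 omissions (MV4-11 DMSO replicates 1 and 3 among them), or with the mitochondrial share in the fit (0.73), and neither DNAJA4 (0.69) nor DNAJC28 (0.84) was called under quantile normalization. DNAJB2 also had a lower response in SKNO-1 than the mean of the FLT3-ITD lines (-0.77).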

How the results depend on the processing

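Counts are members called higher or lower. Adding each library's mitochondrial share to the fit, 28 were lower in MV4-11 and 38 in SKNO-1, the SKNO-1 response differed from that of the FLT3-ITD lines in 7 higher and 7 lower, and 26 were lower in SKNO-1 than MV4-11 with DMSO (22.2%, 29.5%, 7.47%, 12% and 26.8% of all genes). Without the libraries over 10% mitochondrial reads these were 30, 38, 9 and 3, and 24 (19.6%, 32.1%, 7.53%, 11.4% and 24.6%). Fitted line by line, MV4-11 had 1 higher and 2 lower (2.23% and 2.35% of all genes) and SKNO-1 7 and 38 (24.4% and 33.2%). With no filter on low values, 3 were lower in MV4-11, as were 815 of 40184 genes. At a mean of at least 5 CPM the counts of higher members were 5 in Molm-14, 2 in MV4-11, 2 in SKNO-1, 6 for MV4-11 over Molm-14 and 8 for SKNO-1 over Molm-14 with DMSO. In the same order, 2174 of 10811, 751 of 11015, 1210 of 10913, 2599 of 11017 and 3166 of 11028 genes were higher. Quantile normalization gave 1 higher for Molm-14 against MV4-11 responses, 2 lower for SKNO-1 against the FLT3-ITD responses and 16 higher for SKNO-1 over MV4-11 with DMSO. There 1172 of 13458, 302 of 12792 and 3729 of 15512 genes were called in these directions. The causes were not tested.

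The values counted as turned here were in MV4-11, with that share in the fit and without the 4 libraries for CCT4 (-0.33 and -0.43), DNAJA1 (-0.23 and -0.30), DNAJB1 (-0.16 and -0.23) and TCP1 (-0.31 and -0.48), and without the libraries for HSPA8 (-0.50). Changes that turned sign but stayed uncalled are not listed. Of 1971 values of named members under settings other than omissions, 1811 kept the call, or stayed uncalled whatever their sign. A further 65 lost the call, 86 gained it and 9 turned.

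Leaving out 1 library, counts of higher and lower ranged from 6 to 8 and 29 to 35 in Molm-14, 2 to 7 and 3 to 9 in MV4-11, and 3 to 4 and 13 to 23 in SKNO-1. They ranged from 2 to 6 and 8 to 28 for Molm-14 against MV4-11 responses, and 0 to 0 and 1 to 2 for SKNO-1 against the FLT3-ITD responses. Counts over all genes moved with the omissions too. For Molm-14 against MV4-11 responses, 651 of 13342 genes were lower without MV4-11 DMSO replicate 1 and 3203 of 13356 without replicate 2. With DMSO the member counts ranged from 11 to 13 and 25 to 37 (MV4-11 against Molm-14), 14 to 16 and 25 to 27 (SKNO-1 against Molm-14), and 3 to 17 and 8 to 12 (SKNO-1 against MV4-11). Of 3042 such values of named members, 2866 kept the call, or stayed uncalled whatever their sign. No called change turned its sign, and no uncalled one became a call against its first sign. Uncalled changes near 0 did turn, such as CCT3 in MV4-11 (-0.07, ranging from -0.17 to 0.12).

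Same-numbered deviations correlated at 0.39, 0.59 and -0.40 in MV4-11 (replicates 1, 2 and 3), whose libraries also differ in mitochondrial share. They correlated at -0.05, -0.04 and 0.003 in Molm-14 and at 0.13, 0.01 and 0.04 in SKNO-1. These values cannot decide whether replicate numbers pair the cultures, as differently numbered MV4-11 deviations correlated too, up to 0.64. With the replicate block, 8 were higher and 36 lower in Molm-14, 4 and 8 in MV4-11, and 4 and 24 in SKNO-1, with 4 and 21 for Molm-14 against MV4-11 responses and 0 and 1 for SKNO-1 against the FLT3-ITD responses. Higher and lower among all genes were 3125 and 3820 of 13971, 807 and 1161 of 14739, and 1674 and 2587 of 14670 by line. For the responses they were 1626 and 1598 of 13458, and 146 and 245 of 12792. With DMSO the replicate block gave 12 and 33, 16 and 26, and 13 and 10 members for the comparisons in the order above. Among all genes 4105 and 4479 of 15252, 5255 and 5357 of 15759, and 3338 and 3615 of 15512 were called. Depth limits members of few reads, such as HSPB7, HSPA1A and DNAJC15 in Molm-14.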

Other observations

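Of the 66 pseudogenes that matched the symbols, 9 had a mean of at least 1 CPM, and 1 of them stood far above its parent. HSPA7, a near-identical neighbour of the stress-inducible HSPA6, was named after its values were seen. It was read at 36.7, 33.7 and 39.0 CPM in Molm-14 with DMSO and at 163, 333 and 174 CPM with RMC-4550, where HSPA6 was read at 1.64 to 3.52 CPM. In MV4-11 it was read at 75.6, 43.1 and 84.4 CPM and then 142, 85.7 and 89.6, and in SKNO-1 at 10.9, 11.0 and 10.8 CPM and then 14.9, 15.2 and 15.8. Treated libraries lay above the controls in all 3 lines, and the change passed in Molm-14 alone (2.54, SE 0.26, limma adjusted p 1.6e-06). The highest values of each MV4-11 group and of treated Molm-14 were in libraries with over 10% mitochondrial reads. Reads of HSPA6 and HSPA7 may be split by the counting, so that their shares are uncertain.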
